A study of Mus musculus with 24 samples.

Results

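The interleukin-1 family and the inflammasome are represented here by 10 genes, chosen by name from the 56980 genes of the count table. They are the ligands Il1a, Il1b and Il18, the receptor antagonist Il1rn, the receptor accessory chain Il1rap, the sensor Nlrp3, the adaptor Pycard, the caspases Casp1 and Casp4, and the pore-forming protein Gsdmd. All 10 were found in the table, and 9 had enough counts to be tested. The exception was Il1a, which had 0 to 8 counts in every library.

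Interleukin-1β and interleukin-18 are made as precursors without a secretion signal, and microglia are a source of both in the brain. A first signal, often through NF-κB, raises the transcripts of the precursors and of the sensor NLRP3. A second signal, such as potassium loss or lysosomal damage, makes NLRP3 assemble with the adaptor ASC (encoded by Pycard) and caspase-1, which cleaves the cytokine precursors and gasdermin D. These steps after the transcript are not seen in RNA counts.

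The cells were primary wild-type microglia, the resident macrophages of the brain, from neonatal mice (P1 to P3), detached by shaking from mixed glial cultures of cortex and hippocampus and plated in medium that was partly conditioned. They received 50 nM bafilomycin A1 (BafA1), which blocks the vacuolar proton pump that acidifies lysosomes, or the vehicle DMSO, for 1, 7, 14 or 22 h. Each of the 8 groups had 3 replicates, 24 libraries in all, read as tags from the 3′ ends of transcripts. The labels call the replicates biological without tying them to animals or cultures, and the p-values rest on the spread among these libraries alone. No group carried a second stimulus such as lipopolysaccharide.

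Library totals ran from 1322169 to 4189077 counts. At 14 and 22 h the BafA1 libraries were deeper (2805274 to 4189077) than the DMSO libraries (1332093 to 3056773). Levels are given as CPM (counts relative to a fixed library total) scaled by TMM factors, and 3 counts, taken as the floor, stood for 0.77 to 2.40 CPM. The 12 microglia markers were all detected, with a summed level of 2703 to 9769 CPM. With BafA1 3 of these 12 were lower at 7 h (median log2 fold change of the 12 -0.47) and 9 at 14 h (-0.96). Over all genes tested, 2.57%, 12.1% and 22.0% were lower at 7, 14 and 22 h (edgeR adjusted p under 0.05). At 22 h 9 of the 12 markers were lower (-1.85), among them Cx3cr1 (log2 fold change -3.12 ± 0.21 SE) and Csf1r (-1.71 ± 0.21), while the log2 fold change of Trem2 was -0.06 ± 0.21. Their summed level was 4904 to 6483 CPM with BafA1 and 6208 to 8590 CPM with DMSO at 7 h, 4343 to 6078 and 7207 to 9769 CPM at 14 h, and 2703 to 3767 and 5885 to 8479 CPM at 22 h. In bulk RNA, fewer cells of a type and less RNA per cell cannot be told apart. The part of this marker shift in the results below was not tested.

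The upstream sequence of 3 genes is shown. Il1b and Il1rn mark the ends of the response in the set, as Il1b fell most and Il1rn rose most at 22 h. Casp4 is no such end, but it was the only caspase of the set called higher. Each line gives the 250 bases before a transcription start in RefSeq (build GRCm38.p6, 5′ to 3′ on the gene's own strand). Capitals mark matches, on either strand, to 5 short motifs. These are the kB-type letters GGGNNTTCC, the C/EBP-type letters TTGCNNAA, the AP-1 site (TGANTCA), the core of the TATA box (TATAAA) and an E-box (CACGTG).
Il1b, chr2:129371140-129371389, minus strand: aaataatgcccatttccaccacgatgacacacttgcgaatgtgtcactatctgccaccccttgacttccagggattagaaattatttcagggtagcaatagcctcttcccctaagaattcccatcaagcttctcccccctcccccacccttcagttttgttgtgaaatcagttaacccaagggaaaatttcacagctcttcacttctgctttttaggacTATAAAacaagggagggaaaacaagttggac
Il1rn, first start, chr2:24336610-24336859, plus strand: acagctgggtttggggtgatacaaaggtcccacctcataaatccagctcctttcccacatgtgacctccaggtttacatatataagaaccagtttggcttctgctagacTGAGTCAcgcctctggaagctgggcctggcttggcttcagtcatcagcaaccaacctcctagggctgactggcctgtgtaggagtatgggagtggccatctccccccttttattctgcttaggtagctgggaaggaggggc
Il1rn, second start, chr2:24345041-24345290, plus strand: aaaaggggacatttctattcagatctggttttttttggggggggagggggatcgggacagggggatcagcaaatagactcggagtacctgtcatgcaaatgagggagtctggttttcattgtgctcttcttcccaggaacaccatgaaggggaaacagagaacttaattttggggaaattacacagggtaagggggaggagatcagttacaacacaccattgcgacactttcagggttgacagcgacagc
Casp4, chr9:5308599-5308848, plus strand: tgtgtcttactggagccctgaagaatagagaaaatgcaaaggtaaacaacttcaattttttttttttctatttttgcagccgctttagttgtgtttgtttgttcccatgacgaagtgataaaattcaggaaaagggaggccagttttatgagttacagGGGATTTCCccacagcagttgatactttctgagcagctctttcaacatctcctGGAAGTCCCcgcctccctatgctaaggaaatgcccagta
The Il1b window holds TATAAA with its first base 31 bases before the start, and none of the other 4 motifs. The first Il1rn window holds an AP-1 match 141 bases before the start, and the second holds no match. The Casp4 window holds 2 kB-type matches, 92 and 39 bases before the start. RefSeq's table had 13 windows for 9 of the 10 genes. Kappa-B-type letters occurred in windows of Casp4 and Nlrp3, against 4.98% of 32851 windows of the same length over all genes. AP-1 letters occurred in Il1a and Il1rn (6.75% of all windows), TATAAA in Il1a, Il1b and Il18 (12.4%), C/EBP-type letters in Pycard (9.56%) and the E-box in Casp1 (6.02%). No 2 of the 5 motifs overlapped in these windows. A match is a description of letters and does not show that a factor binds there, and a missing match says nothing about a factor.

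The question put to the 10 genes was whether blocking lysosomal acidification changed their transcripts, and when. After 1 h no gene in the whole table passed edgeR's quasi-likelihood test (0 of 12648 genes, 0% called, at an adjusted p under 0.05), and 380 genes but none of the 9 had an unadjusted p under 0.05. DESeq2 also called 0 genes at 1 h. At 7 h, Il1b and Pycard were lower and no member was higher, against 2.57% of all genes called lower and 4.57% called higher. At 14 h, 2 of 9 were higher (Il1rn, Nlrp3) and 4 lower (Il1b, Il18, Il1rap, Pycard), against 12.1% called higher and 12.1% called lower over all genes. At 22 h, 2 of 9 were higher (Il1rn, Casp4) and 5 lower (Il1b, Il18, Il1rap, Nlrp3, Pycard), against 17.9% called higher and 22.0% called lower. The median log2 fold change of the 9 genes was -0.05, -0.28, -0.44 and -0.93 at 1, 7, 14 and 22 h, beside 0.02, -0.02, -0.05 and -0.06 over all genes tested.

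**Figure D1:**
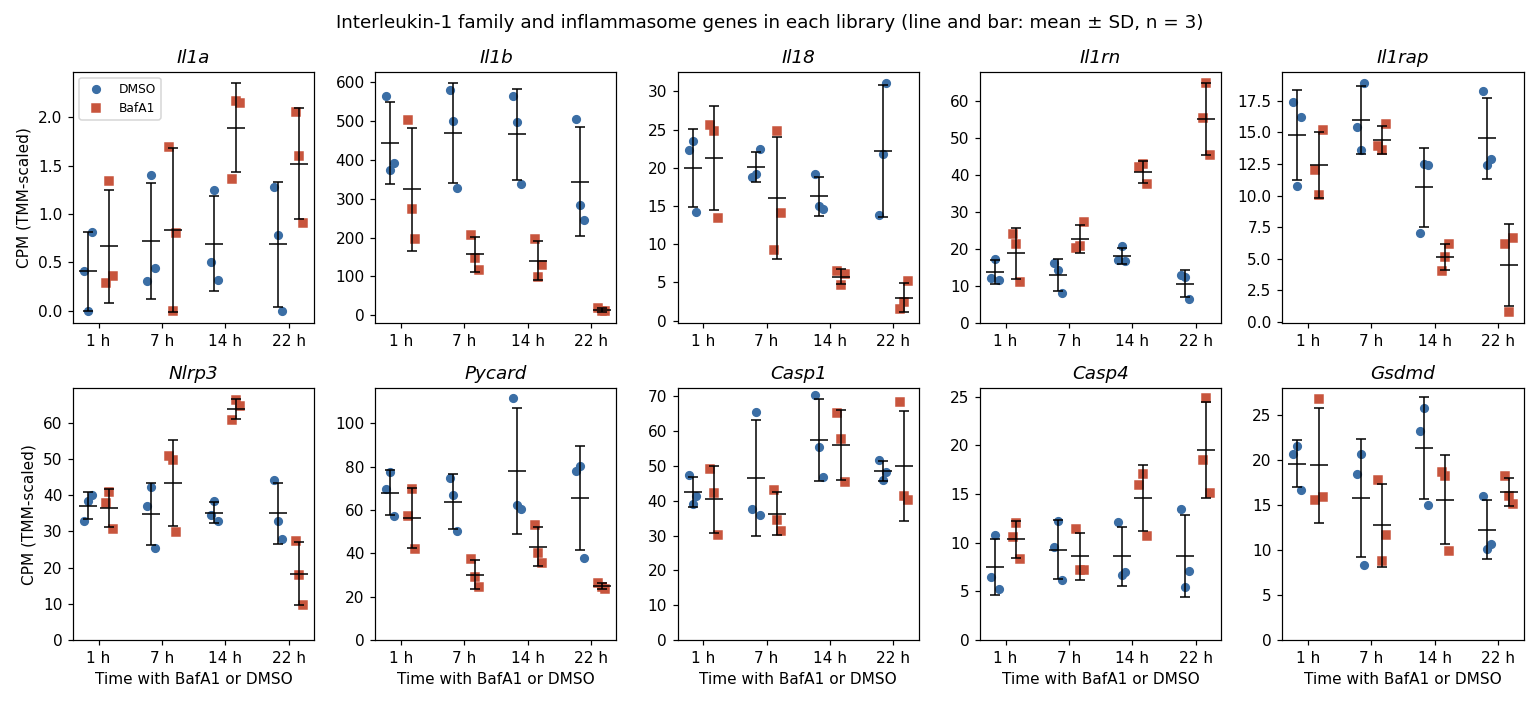
CPM of the 10 genes in each library, by time and treatment, with a separate vertical scale per gene; points are single libraries and the line with its bar is the mean ± SD of 3. The 3 BafA1 libraries at 22 h sit between 9.62 and 19.25 CPM for Il1b, below all DMSO libraries, and between 45.4 and 64.9 CPM for Il1rn, above all DMSO libraries; Casp1 and Gsdmd overlap between treatments at all 4 times.

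Il1b, which encodes the interleukin-1β precursor, was present in every DMSO group and was almost lost with BafA1 by 22 h. In DMSO its level in the 3 libraries was 566, 374 and 394 CPM at 1 h, 580, 499 and 329 CPM at 7 h, 566, 497 and 337 CPM at 14 h, and 505, 283 and 245 CPM at 22 h. With BafA1 it was 503, 275 and 196 CPM at 1 h, 206, 148 and 116 CPM at 7 h, 195, 97.7 and 128 CPM at 14 h, and 19.25, 9.62 and 11.2 CPM at 22 h. The treatments overlapped at 1 h only, and at 7, 14 and 22 h every BafA1 library lay below every DMSO library. In all 8 groups replicate 1 had the highest level, so the spread within a group followed the replicate number.

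Set against the DMSO library of the same replicate number, Il1b with BafA1 stood at 49.7 to 88.8% at 1 h, 29.6 to 35.5% at 7 h, 19.7 to 38.0% at 14 h and 3.40 to 4.57% at 22 h. It was lower in 3 of 3 pairs at each time. Its log2 fold change was -0.45 ± 0.32 (SE) at 1 h and was not called. It was -1.58 ± 0.34 at 7 h (edgeR adjusted p = 0.00304), -1.73 ± 0.33 at 14 h (edgeR adjusted p = 0.000341) and -4.65 ± 0.41 at 22 h (edgeR adjusted p = 1.79e-09). Between successive times the effect changed by -1.13 ± 0.46 from 1 to 7 h (edgeR adjusted p = 0.281, not called; 0.0016 with the replicate block), by -0.15 ± 0.46 from 7 to 14 h (edgeR adjusted p = 0.911, not called) and by -2.92 ± 0.51 from 14 to 22 h (edgeR adjusted p = 0.00259).

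Il18, the other precursor that caspase-1 cleaves, was called lower at 14 and 22 h. Its 3 DMSO libraries stood at 19.2, 15.0 and 14.6 CPM at 14 h and 13.8, 21.8 and 31.0 CPM at 22 h. With BafA1 they stood at 6.46, 4.61 and 6.16 CPM at 14 h and 1.54, 2.41 and 5.15 CPM at 22 h. The groups did not overlap at either time, and the 22 h BafA1 libraries rest on 6, 6 and 17 counts. Its log2 fold change was 0.09 ± 0.35 at 1 h and -0.39 ± 0.36 at 7 h, neither called, then -1.49 ± 0.38 at 14 h (edgeR adjusted p = 0.00477) and -2.85 ± 0.42 at 22 h (edgeR adjusted p = 5.03e-06). At 7 h the 3 BafA1 libraries were widely spread, at 9.31, 24.8 and 14.1 CPM, which was 49.5, 129 and 62.7% of the DMSO library of the same number. The change of the effect from 7 to 14 h was -1.10 ± 0.53 (edgeR adjusted p = 0.315, not called), and the timing of Il18 was not tested against that of Il1b.

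Il1a, which encodes interleukin-1α, was close to the detection limit. It had 0 to 4 counts in each DMSO library, and with BafA1 1, 2 and 1 counts at 1 h, 4, 0 and 2 at 7 h, 4, 8 and 8 at 14 h and 8, 4 and 3 at 22 h. At 14 h the 3 BafA1 libraries (1.36, 2.17 and 2.14 CPM) lay above the 3 DMSO libraries (0.51, 1.25 and 0.32 CPM). Without the filter on low counts the edgeR adjusted p was 0.548 at 14 h and 0.676 at 22 h, so a change of Il1a was not detectable at this depth.

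Il1rn encodes the interleukin-1 receptor antagonist, which occupies the receptor without signalling, and it moved opposite to Il1b. In DMSO its libraries stood at 12.1, 17.5 and 11.8 CPM at 1 h, 16.3, 14.5 and 8.34 CPM at 7 h, 17.2, 20.8 and 16.9 CPM at 14 h, and 13.1, 12.5 and 6.65 CPM at 22 h. With BafA1 they stood at 24.1, 21.4 and 11.2 CPM at 1 h, 20.3, 20.8 and 27.3 CPM at 7 h, 42.1, 43.2 and 37.5 CPM at 14 h, and 55.4, 64.9 and 45.4 CPM at 22 h. From 7 h on, every BafA1 library was above every DMSO library of the same time.

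The log2 fold change of Il1rn was 0.48 ± 0.29 at 1 h (not called) and 0.80 ± 0.29 at 7 h (edgeR adjusted p = 0.101, not called). It was 1.16 ± 0.26 at 14 h (edgeR adjusted p = 0.00178) and 2.36 ± 0.28 at 22 h (edgeR adjusted p = 3.26e-07). In the fit blocked by replicate number the 7 h value was 0.85 and passed (edgeR adjusted p = 0.0204). The change of the effect from 14 to 22 h was 1.20 ± 0.39 (edgeR adjusted p = 0.121, not called), and it passed with the block (edgeR adjusted p = 0.0241).

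Since Il1rn and Il1b moved apart, their counts were set against each other within each library, which needs no scaling between libraries. In DMSO there were 3.27 ± 1.28 (SD, n = 3) Il1rn counts for every 100 Il1b counts at 1 h, 2.75 ± 0.19 at 7 h, 4.08 ± 0.99 at 14 h and 3.24 ± 1.01 at 22 h. With BafA1 there were 6.11 ± 1.54 at 1 h, 15.8 ± 6.96 at 7 h, 31.7 ± 11.5 at 14 h and 456 ± 198 at 22 h. In the 3 BafA1 libraries at 22 h the ratio was 288, 675 and 405, so that Il1rn tags outnumbered Il1b tags in each of them and in no other group. The BafA1 libraries lay above the DMSO libraries at all 4 times, although at 1 h only by a small gap, with the lowest BafA1 library at 4.797 and the highest DMSO library at 4.67. The difference of the mean log2 ratio between treatments was 0.95, 2.43, 2.93 and 7.09 at 1, 7, 14 and 22 h. The ratio compares tags of 2 genes and not the amounts of their proteins.

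**Figure D2:**
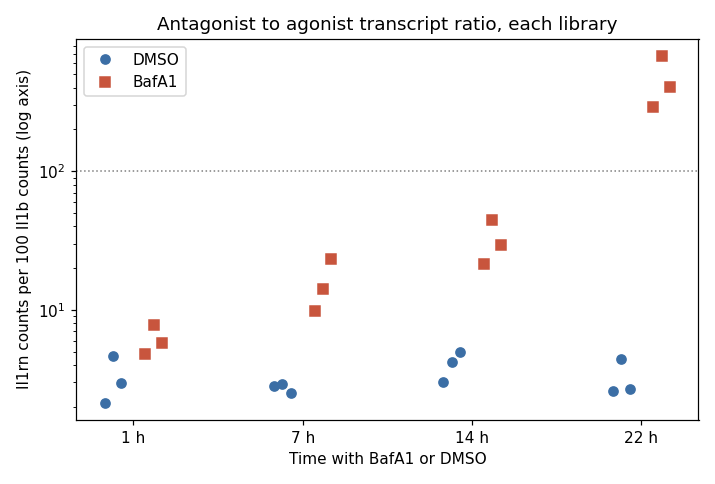
Il1rn counts per 100 Il1b counts in each library by time, on a log axis; blue circles are DMSO and red squares BafA1, and the dotted line marks equal counts. DMSO libraries stay at group means of 2.75 to 4.08, while the BafA1 means climb from 6.11 at 1 h to 456 at 22 h.

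Il1rap encodes the accessory chain that interleukin-1, interleukin-33 and interleukin-36 receptors share. Its level at 22 h was 18.2, 12.5 and 12.9 CPM in DMSO and 6.16, 0.80 and 6.67 CPM with BafA1, where replicate 2 rests on 2 counts. At 14 h it was 7.08, 12.5 and 12.4 CPM in DMSO and 4.08, 5.16 and 6.16 CPM with BafA1. The groups did not overlap at either time. On the log2 scale the fold change was -0.25 ± 0.36 at 1 h and -0.14 ± 0.35 at 7 h, neither called, -1.06 ± 0.38 at 14 h (edgeR adjusted p = 0.0432) and -1.63 ± 0.38 at 22 h (edgeR adjusted p = 0.00135). At 14 h the log2 fold change was -1.26 to -0.91 in the fits that left out 1 library, but the call lay close to the threshold. It was lost in 5 of 6 fits that left out 1 library of that time (edgeR adjusted p of 0.139 and 0.154 without DMSO replicate 2 or 3, and 0.136, 0.11 and 0.0614 without BafA1 replicate 1, 2 or 3) and without the filter on low counts (0.124).

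Nlrp3, the sensor, was the only member called in both directions. Its 3 DMSO libraries stood at 34.4, 38.3 and 32.8 CPM at 14 h and 44.2, 32.7 and 27.9 CPM at 22 h. The BafA1 libraries stood at 60.8, 66.2 and 64.6 CPM at 14 h and at 27.2, 18.04 and 9.70 CPM at 22 h. BafA1 was thus above DMSO in every library at 14 h and below it in every library at 22 h, although at 22 h the gap was narrow, between 27.2 CPM with BafA1 and 27.9 CPM in DMSO.

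The log2 fold change of Nlrp3 was -0.03 ± 0.27 at 1 h and 0.30 ± 0.27 at 7 h, neither called. It was 0.86 ± 0.25 at 14 h (edgeR adjusted p = 0.0141) and -0.93 ± 0.27 at 22 h (edgeR adjusted p = 0.00837). The change between these times was -1.80 ± 0.37 (edgeR adjusted p = 0.0102). The fall at 22 h was not called without DMSO replicate 1 (log2 fold change -0.66, edgeR adjusted p = 0.0882) or without BafA1 replicate 3 (-0.62, edgeR adjusted p = 0.0673). The change from 14 to 22 h was called in all fits that left out 1 library, with values of -2.23 to -1.48.

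Pycard, which encodes ASC, the adaptor that links NLRP3 to caspase-1, was lower from 7 h on. Its libraries stood at 74.5, 67.0 and 50.1 CPM in DMSO and 37.2, 28.8 and 24.5 CPM with BafA1 at 7 h. At 14 h they stood at 112, 62.1 and 60.5 CPM in DMSO and 53.0, 40.2 and 35.6 CPM with BafA1. At 22 h they stood at 78.1, 80.2 and 37.7 CPM in DMSO and 26.4, 24.4 and 23.6 CPM with BafA1. The groups overlapped at none of these 3 times, and in 3 of 3 pairs of the same replicate number BafA1 was lower.

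The log2 fold change of Pycard was -0.28 ± 0.27 at 1 h (not called), -1.08 ± 0.28 at 7 h (edgeR adjusted p = 0.0151), -0.86 ± 0.26 at 14 h (edgeR adjusted p = 0.0176) and -1.38 ± 0.28 at 22 h (edgeR adjusted p = 0.000269). The 7 h call was lost without DMSO replicate 1 (edgeR adjusted p = 0.0897), BafA1 replicate 2 (0.0551) or BafA1 replicate 3 (0.0832). The 14 h call was lost without DMSO replicate 1, whose 112 CPM was the highest value of the gene (log2 fold change -0.51, edgeR adjusted p = 0.19), BafA1 replicate 2 (0.0706) or BafA1 replicate 3 (0.0871).

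Casp1, the protease of the canonical inflammasome, was not called at any time. Its libraries at 22 h stood at 51.6, 46.0 and 48.3 CPM in DMSO and 68.3, 41.3 and 40.3 CPM with BafA1. The log2 fold change was -0.08 ± 0.25, -0.34 ± 0.25, -0.03 ± 0.23 and 0.04 ± 0.24 at 1, 7, 14 and 22 h, with a 95% interval of -0.45 to 0.54 at 22 h. The treatments overlapped at all 4 times.

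Casp4, which encodes mouse caspase-11, the protease that senses cytosolic lipopolysaccharide, was higher at 22 h. Its libraries then stood at 13.4, 5.45 and 7.10 CPM in DMSO and 18.5, 24.9 and 15.1 CPM with BafA1, with no overlap. At 14 h they stood at 12.1, 6.67 and 7.00 CPM in DMSO and 16.0, 17.1 and 10.7 CPM with BafA1, where the lowest BafA1 library lay below the highest DMSO library. BafA1 over DMSO, its log2 fold change was 0.49 ± 0.38 at 1 h and -0.09 ± 0.37 at 7 h, neither called, 0.78 ± 0.35 at 14 h (edgeR adjusted p = 0.103, not called) and 1.08 ± 0.34 at 22 h (edgeR adjusted p = 0.0144). With the replicate block the 14 h value passed (edgeR adjusted p = 0.0397). The 22 h call was lost without DMSO replicate 2 (edgeR adjusted p = 0.0653), DMSO replicate 3 (0.0588) or BafA1 replicate 2 (0.0709). DMSO replicate 2 at 22 h held 7 counts of the gene.

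Gsdmd encodes gasdermin D, whose cleaved end forms the membrane pore of pyroptosis. Its libraries at 22 h stood at 16.0, 10.1 and 10.6 CPM in DMSO and 18.2, 16.0 and 15.1 CPM with BafA1. The log2 fold change was -0.05 ± 0.32, -0.28 ± 0.34, -0.45 ± 0.32 and 0.39 ± 0.33 at the 4 times, none of them called, with a 95% interval of -0.30 to 1.07 at 22 h. The groups overlapped at all 4 times.

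**Figure D3:**
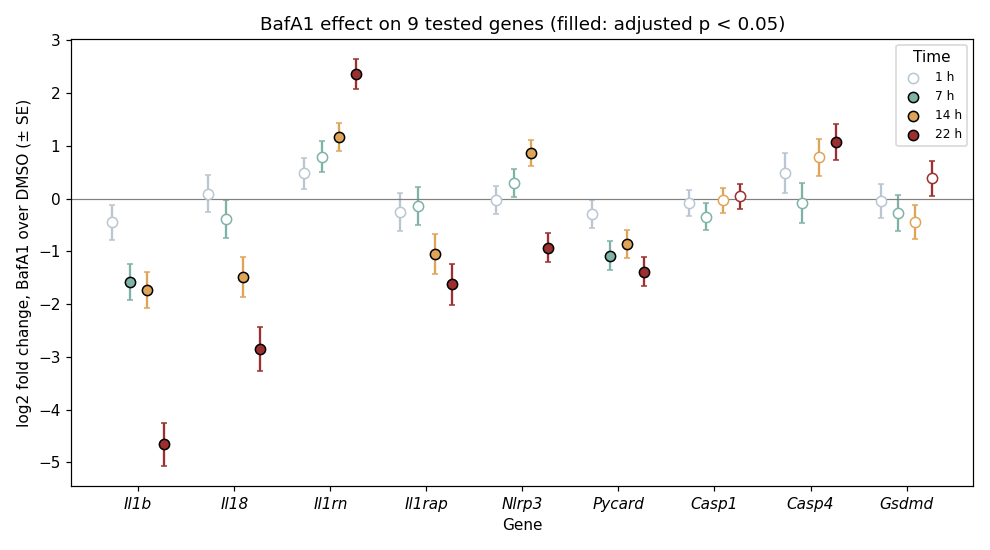
Log2 fold change of BafA1 over DMSO with its SE for the 9 tested genes at 1, 7, 14 and 22 h; filled points have an adjusted p under 0.05. Il1b reaches -4.65 and Il1rn 2.36 at 22 h, Nlrp3 goes from 0.86 at 14 h to -0.93 at 22 h, and no point of Casp1 or Gsdmd is filled.

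The effect of BafA1 depended on time for 4 of the 9 genes by the test of treatment by time, against 21.2% of all genes. These were Il1b (edgeR adjusted p = 9.77e-06), Il18 (0.00102), Il1rn (0.0054) and Nlrp3 (0.00603). With the replicate block 6 were called, the 2 gained being Il1rap (edgeR adjusted p = 0.0373, 0.0965 without the block) and Pycard (0.0149, 0.15 without). Between successive times no member's effect was called as changed from 1 to 7 h (2.23% of all genes were) or from 7 to 14 h (2.26%), where 2 members and 1 member had an unadjusted p under 0.05. With the replicate block Il1b was called from 1 to 7 h. From 14 to 22 h 2 of 9 were called, Il1b and Nlrp3, against 1.98% of all genes. In the DMSO cultures alone none of the 9 was called at 7, 14 or 22 h against 1 h, nor had any an unadjusted p under 0.05, while 0.00791%, 0.150% and 0.403% of all genes were called. These DMSO comparisons share the 1 h libraries.

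Over the means of the 8 groups, the log2 levels of Il1b and Il18 followed each other (Pearson's r = 0.92), as did those of Il18 and Il1rap (0.97). Il1rn ran against all 3 (-0.86 with Il1b, -0.95 with Il18 and -0.93 with Il1rap) and with Casp4 (0.90). The level of Nlrp3 was less closely tied to those of the other tested members, with r between -0.35 and 0.56. The same held for Casp1 (-0.52 to 0.32) and Gsdmd (-0.15 to 0.40). These values are descriptions over 8 group means that share libraries, treatment and depth.

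The genes whose 8 group means were most like those of Il1b, of 8972 genes compared, were Lmbr1 (r = 0.997), Rnpep (0.992), Abcd2 (0.992), B4galt6 (0.991) and the prostaglandin receptor gene Ptger4 (0.991). Ptger4 fell from a mean of 167 CPM in DMSO to 25.8 CPM with BafA1 at 22 h. Il1rn was most like Arhgap24 (0.992), Syngr1 (0.988), the proteasome subunit gene Psmb6 (0.987), Nxt1 (0.987) and Agfg1 (0.986). Psmb6 stood at means of 160 CPM in DMSO and 502 CPM with BafA1 at 22 h. Nlrp3 was most like Prdm1 (0.953), a transcriptional repressor gene, then Jag1 (0.939), Slc7a8 (0.926), Slc43a2 (0.921) and Pag1 (0.916). Prdm1 went from 41.4 CPM in DMSO and 50.5 CPM with BafA1 at 14 h to 32.4 and 20.1 CPM at 22 h. Casp4 was most like Ikbkg (0.989), which encodes the NF-κB pathway subunit NEMO, then Ube4a (0.985), Atf5 (0.983) and Commd1b (0.983). Ikbkg stood at 46.4 CPM in DMSO and 109 CPM with BafA1 at 22 h. These likenesses say nothing of shared function or control.

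The NF-κB induced inflammatory genes, a class to which Il1b and Nlrp3 are usually counted, held more higher than lower calls at 7 and 14 h, when Il1b was lower, and both kinds at 22 h. Of 20 listed genes 17 were tested, and 3 were higher and 0 lower at 7 h, 9 higher and 0 lower at 14 h, and 4 higher and 3 lower at 22 h. Calls over all genes were 4.57% higher and 2.57% lower at 7 h, 12.1% and 12.1% at 14 h, and 17.9% and 22.0% at 22 h. The median log2 fold change of the 17 genes was 0.24, 0.78 and 0.18 at these times, and -0.02, -0.05 and -0.06 over all genes tested. The chemokine gene Cxcl2 went from a DMSO mean of 56.0 ± 4.51 (SD, n = 3) to 282 ± 10.6 CPM at 14 h (log2 fold change 2.33 ± 0.24, edgeR adjusted p = 5.17e-08) and was still higher at 22 h (1.79 ± 0.25, edgeR adjusted p = 2.96e-06). Tnf rose by 1.67 ± 0.28 at 14 h, and Tnfaip3, which encodes the feedback inhibitor A20, by 2.14 ± 0.29. At 7 h, when Il1b was already lower, the chemokine genes Ccl4 (1.301 ± 0.26) and Ccl3 (1.17 ± 0.22) were higher. At 22 h Nfkbiz, which encodes the nuclear regulator IκBζ, was lower by -1.10 ± 0.17 (edgeR adjusted p = 1.55e-05), and the other lower calls were the subunit genes Rel (-0.61) and Nfkb1 (-0.51), named after their values were seen.

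**Figure D4:**
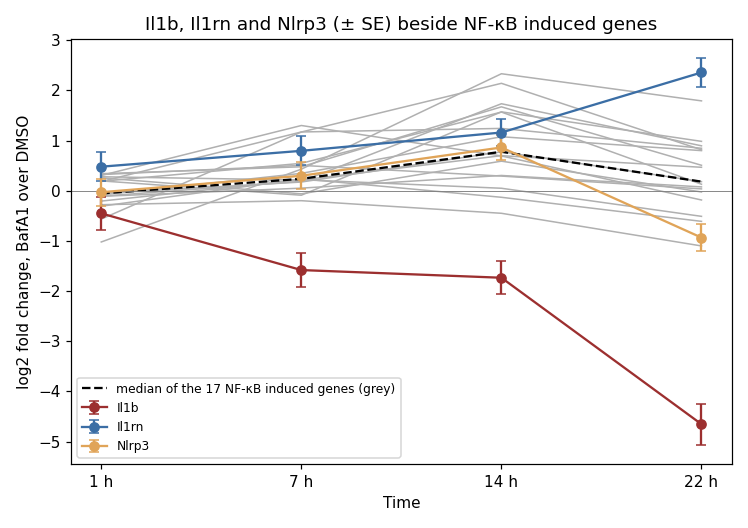
Log2 fold change of BafA1 over DMSO by time for Il1b, Il1rn and Nlrp3 (± SE), with the 17 tested NF-κB induced genes as grey lines and their median dashed. The median is 0.78 at 14 h, close to the 0.86 of Nlrp3, while Il1b lies at -1.73, below all grey lines.

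All 20 listed genes that carry the signal of the interleukin-1 and Toll-like receptors were tested. Over all genes, 4.57%, 12.1% and 17.9% were called higher at 7, 14 and 22 h, and 2.57%, 12.1% and 22.0% lower. Of these 20, 0 were higher and 1 lower at 7 h, 5 higher and 2 lower at 14 h and 4 higher and 3 lower at 22 h. The largest rise at 14 h was that of Irak3, which encodes a kinase-like inhibitor of this signal, from 11.9 ± 4.49 to 33.0 ± 4.82 CPM (SD, n = 3; log2 fold change 1.43 ± 0.31, edgeR adjusted p = 0.00112). At 22 h Irak3 was not called (0.395 ± 0.315, edgeR adjusted p = 0.33). Tollip, another inhibitor of the pathway, was higher at 14 h (1.05 ± 0.21) and 22 h (1.11 ± 0.21), as was the ubiquitin ligase gene Traf6 (1.34 ± 0.34 and 1.33 ± 0.35), which transmits the signal. Ticam1, which encodes the adaptor TRIF, was higher at 22 h (1.20 ± 0.35). Irak4, the first kinase of the chain and the single call at 7 h, was lower at 7 h (-0.90 ± 0.19, edgeR adjusted p = 0.00352), 14 h (-0.54 ± 0.18) and 22 h (-0.54 ± 0.19), and it was named after its values were seen. The other ligands, receptors and decoys of the family were rarely detected, with 2 of 16 tested. Neither was called. Sigirr, an inhibitory receptor, had a log2 fold change of 1.04 ± 0.72 at 22 h and Il1rl1, the interleukin-33 receptor, -0.02 ± 1.10.

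Of 21 other inflammasome sensors and regulators 14 were tested. Among all genes, 4.57%, 12.1% and 17.9% were called higher at 7, 14 and 22 h, and 2.57%, 12.1% and 22.0% lower. Of the 14, 1 was higher each time and 2, 2 and 5 were lower. The higher gene was Card19 at all 3 times (1.14 ± 0.17, 1.10 ± 0.16 and 1.42 ± 0.17), from 60.9 ± 4.64 to 163 ± 24.5 CPM at 22 h (SD, n = 3). Pstpip1, which encodes an adaptor that binds pyrin, was lower at 14 h (-2.33 ± 0.42) and 22 h (-2.44 ± 0.44, edgeR adjusted p = 7.52e-05), from 14.4 ± 2.32 to 2.81 ± 1.56 CPM. Txnip, which binds thioredoxin and has been tied to NLRP3, was lower at 7 h (-0.89 ± 0.16). It was not called at 14 h (-0.17 ± 0.15) or 22 h (-0.10 ± 0.15). The DNA sensor gene Ifi204 was lower at 7 h (-0.92 ± 0.24) and 22 h (-1.31 ± 0.24, edgeR adjusted p = 9.58e-05), and the flagellin receptor gene Naip6 was lower at 22 h (-1.72 ± 0.43). Nlrp1b was called lower at 14 h (-3.10 ± 1.19, edgeR adjusted p = 0.0474) on DMSO levels of 3.73 ± 4.14 CPM. Ifi204, Naip6 and Nlrp1b belong to families of near-identical genes that can share reads, so their values are uncertain.

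Of the genes of pyroptosis, other caspases and caspase inhibitors, 16 of 22 were tested. The shares over all genes were 4.57%, 12.1% and 17.9% called higher at 7, 14 and 22 h, and 2.57%, 12.1% and 22.0% lower. At these times 1, 3 and 3 of the 16 were higher and 0, 1 and 3 lower. Ninj1, which encodes the protein that ruptures the membrane of dying cells after gasdermin pores have formed, was higher at 7 h (1.29 ± 0.17), 14 h (1.66 ± 0.17) and 22 h (2.06 ± 0.18, edgeR adjusted p = 1.29e-09). Its level at 22 h was 46.9 ± 5.88 CPM in DMSO and 196 ± 25.5 CPM with BafA1 (SD, n = 3). Cflar, an inhibitor of caspase-8, was higher at 14 h (1.01 ± 0.14) and 22 h (1.09 ± 0.14), and Birc3, another inhibitor of cell death, at 14 h (0.91 ± 0.25). The guanylate-binding protein gene Gbp2, a helper of caspase-11 against bacteria and a member of a family of similar genes, was higher at 22 h (1.76 ± 0.58, edgeR adjusted p = 0.0168). Its level was 5.62 ± 0.34 CPM with BafA1 and 1.46 ± 1.56 CPM in DMSO, a mean within the range of the floor.

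Among 12 tested genes of 13 for the channels of NLRP3 activation and for cytokine release, 1, 2 and 3 were higher and 1, 1 and 3 lower at 7, 14 and 22 h. Set beside these are 4.57%, 12.1% and 17.9% of all genes called higher, and 2.57%, 12.1% and 22.0% called lower. P2rx7, the ATP-gated channel whose opening lets out potassium, was lower at all 3 times (-0.999 ± 0.28, -1.15 ± 0.27 and -1.29 ± 0.27, edgeR adjusted p = 0.00049 at 22 h), from 56.3 ± 9.50 to 22.6 ± 3.40 CPM at 22 h (SD, n = 3). Entpd1, the enzyme that degrades extracellular ATP, was higher at 7 h (1.07 ± 0.29) and lower at 22 h (-0.96 ± 0.30). Ctsb, the lysosomal protease cathepsin B, was higher at 14 h (0.781 ± 0.185, edgeR adjusted p = 0.00261). It was also higher at 22 h, from 2496 ± 580 to 4757 ± 708 CPM (0.93 ± 0.18, edgeR adjusted p = 0.000267).

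**Figure D5:**
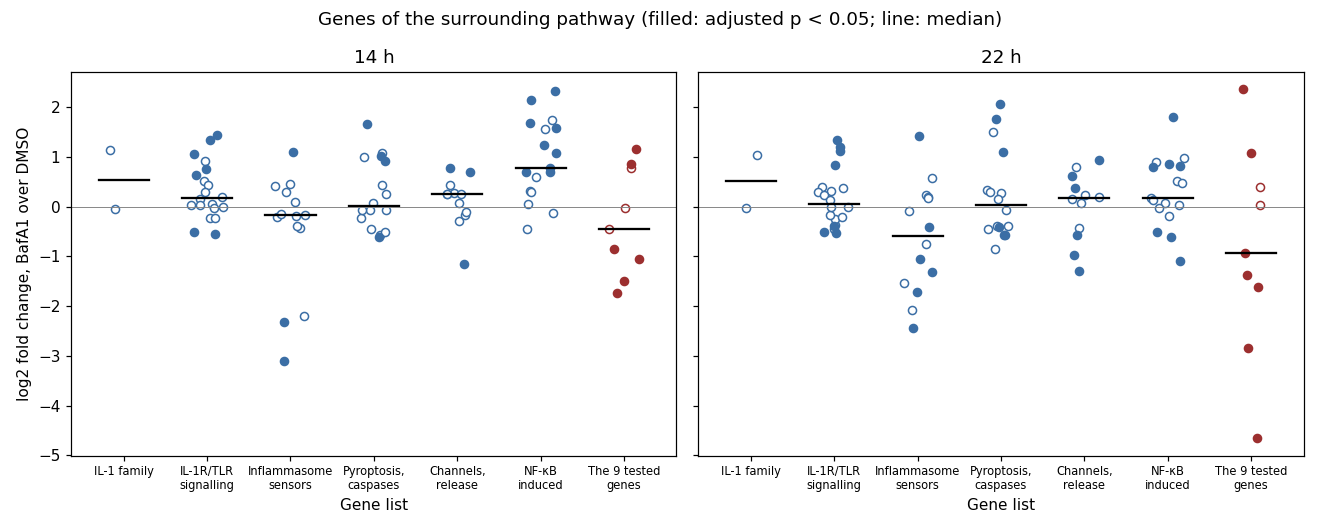
Log2 fold change of BafA1 over DMSO at 14 and 22 h for the tested genes of 6 pathway lists and for the 9 tested members; filled points have an adjusted p under 0.05 and the bar is the median. The median of the NF-κB induced genes is 0.78 at 14 h and 0.18 at 22 h, and that of the 9 members is -0.44 and -0.93.

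Interleukin-1 transcripts also come from other myeloid cells, so their markers were looked up. The 10 neutrophil markers summed to 3.26 to 27.5 CPM over all libraries, the 5 monocyte markers to 1.61 to 14.0 CPM and the 6 lymphocyte markers to 0 to 2.84 CPM, with Nkg7 at 0 in all. The 7 markers of border macrophages, which are also myeloid, summed to 413 to 846 CPM, with 412.8 to 639 CPM with BafA1 and 624.5 to 722 CPM in DMSO at 22 h. Most of this sum was a single gene, Ms4a7, with means of 546 CPM in DMSO and 459 CPM with BafA1 at 22 h (log2 fold change -0.25 ± 0.16, not called). Cd209f, another of these markers, had no counts in any DMSO group, so the sum does not measure the share of such cells. At 22 h the neutrophil sum was 6.65 to 10.9 CPM in DMSO and 4.81 to 5.39 CPM with BafA1, and the monocyte sum 7.98 to 14.0 CPM and 2.00 to 3.59 CPM. The single tested monocyte marker, Ccr2, was lower at 22 h (log2 fold change -3.99). Of the border macrophage markers 2 of 3 tested, Pf4 and Mrc1, were lower at 22 h, against 22.0% called lower over all genes. Of the oligodendrocyte lineage markers 10 of 11 were lower, and of the astrocyte markers 6 of 9. None of these lists had a marker called higher at 22 h, against 17.9% of all genes. The part of such cells in the values of Il1b and the other members was not tested.

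Il1b, Il1a, Il18, Il1rap and Pycard overlap genes on the other strand in the GENCODE M21 annotation, and whether reads were counted by strand is not given in the sources used here, so reads of overlapping genes cannot be told apart. The 6 overlapping genes held 3 to 50 counts over all 24 libraries, against 17703 for Il1b, 3202 for Pycard, 878 for Il18, 696 for Il1rap and 63 for Il1a. For Il1a, Gm14023 on the other strand held 21.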

How the data were processed

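Poly(A) RNA of 24 mouse microglia samples was made into 3′ tag libraries (QuantSeq, with molecular identifiers against PCR duplicates) and sequenced from 1 end, as the labels' protocols say. Salmon and GRCm39 are named in the submitters' processing notes (versions and annotation: not given in the sources used here). Gene tables of estimated counts (37.1% of values above 0 were not whole) were deposited by the authors, and so were log2 CPM, which differed from log2 CPM recomputed from the deposited counts by at most 0.0012. The symbols are those the deposited gene table pairs with the IDs. No gene coordinates are given in GRCm39, and the promoter windows are RefSeq's in GRCm38.p6. RNA integrity numbers, where given, were 9.6 to 10.

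Before testing, each estimated count was rounded to a whole number. Genes were kept by filterByExpr (minimum count 10) over the 8 groups, which left 12648 of 56980 genes and dropped 0.699% of counts. Libraries were scaled by TMM, and the quasi-likelihood test of edgeR 4.0.16 (with limma 3.58.1, in R 4.3.3) was fitted over all 24 libraries, each group having its own coefficient. BafA1 was set against DMSO of the same time, and p-values were adjusted by Benjamini-Hochberg over all genes tested and called under 0.05. SE is the absolute log2 fold change from the unshrunk coefficients of the fit, divided by the square root of its F statistic. The log2 fold changes printed are those of edgeR's test, which are shrunk and can differ slightly from the unshrunk ones. The scripts were tested on simulated data. The alternatives were DESeq2 1.42.0, other scaling and filters, a replicate block, a fit to only the libraries compared, and leaving out each library. Libraries of a group all differed by more than sampling noise.

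The replicate numbers pair the samples. In all 12 pairs of time and number, the DMSO and BafA1 libraries deviated together from their group means (r = 0.14 to 0.34), and all 12 DMSO libraries matched their own number best. The pairing comes from this check and not from a label on litters or days. The main fit held no term for the replicate number, so its calls and the shares over all genes do not use the pairing. Only the fit with the replicate block uses it.

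The 10 genes, the lists and the motifs were chosen with earlier results of these data known. All 10 genes are reported. Of each list up to 3 called genes with the largest change per comparison are named, or the 2 most abundant where fewer than 2 were called, and for likeness the 5 genes with the highest correlation. Some results that these rules would name are not reported here. One listed gene did not match a symbol and was not analysed here. The floor of 3 counts covers counting error only, while the 95% intervals of log2 fold changes come from the edgeR fit and include the spread between libraries.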

Additional observations from a re-analysis of the deposited data

Results flagged for a closer look

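The effect of BafA1 on 4 genes differed between times by the test of treatment by time in edgeR. The adjusted p was 9.77e-06 for Il1b, 0.00102 for Il18, 0.0054 for Il1rn and 0.00603 for Nlrp3. Between 14 and 22 h the test of the difference itself picked out Il1b, whose log2 fold change dropped by 2.92 (change -2.92), with BafA1 below DMSO in 3 of 3 pairs at both times. It also picked out Nlrp3, with a change of -1.80, where BafA1 was above DMSO in 3 of 3 pairs at 14 h and below it in 3 of 3 at 22 h. The microglia markers summed to 4343 to 6078 CPM with BafA1 at 14 h and 2703 to 3767 CPM at 22 h, and their part in these changes was not tested.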

How the results depend on the processing

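Values of single members were tallied for BafA1 against DMSO at the 4 times and for the change from 14 to 22 h. The changes from 1 to 7 h and from 7 to 14 h and the test of treatment by time are outside this tally. Under the alternatives other than leaving out a library, 266 values of single members stayed on their side of the threshold, 3 passed it and 1 no longer did. When 1 library was left out, 308 stayed and 16 no longer passed. None changed direction while called. Without the filter on low counts 26 genes were called at 1 h (0 with it), and 1 member's effect was called as changed from 1 to 7 h (0 with it), Il1b (edgeR adjusted p = 7.47e-05). With the replicate block 1555 genes were called at 7 h (903 without), 4166 at 14 h (3054) and 5980 at 22 h (5050), and 1 member's effect was called as changed from 1 to 7 h (0 without). The block called 3 members at 7 h, 7 at 14 h and 7 at 22 h, where the fit without it called 2, 6 and 7, and 6 by treatment by time against 4. Beyond these it changed among the 9 genes the call of Il1rn from 14 to 22 h. Leaving out 1 library gave 573 (without DMSO replicate 1) to 804 genes called at 7 h and 1 to 2 members, 4 to 5 members at 14 h and 6 to 7 at 22 h. The cause of these shifts was not tested. At this depth Il1a was not tested, and Il18 and Il1rap at 22 h rest on few counts in BafA1 libraries.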
